A study of Mus musculus with 8 samples.

Results

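The guanylate-binding proteins (GBPs) and the immunity-related GTPases (IRGs) are families of interferon-inducible GTPases, represented here by Gbp2, Gbp2b (also called Gbp1), Gbp3, Gbp7, Iigp1, Igtp, Ifi47, Tgtp1, Irgm1 and Irgm2. These 10 genes, of 17097 named by a probe set that lists a single gene, were found by symbol and were picked because most of them were lower in Raptor-deficient regulatory T cells. Their difference between the genotypes is therefore given as a description, without a test. The array held 13 probe sets for them. Gbp2, Gbp7 and Iigp1 had 2 each, and only Gbp2b lay near background. The 13 were taken from probe sets that list a single gene. Among probe sets that list several genes, 0 named a member by its current symbol. Where a gene had 2 probe sets, the one with the higher mean over all arrays stands for the gene.

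CD4+CD25+ regulatory T cells were sorted from spleen and lymph nodes of CD4(cre)Raptor(fl/fl) mice (RaptorKO, 4 arrays) and of WT mice (4 arrays), all on the C57Bl/6J background. Cells were used fresh and without treatment, so no interferon was added. The labels give no age, and the Cre is driven in CD4-expressing cells as a whole, so the deletion is not limited to regulatory T cells. Raptor is the scaffold protein of the kinase complex mTORC1. No label states that each array had its own mouse, so the p-values reflect only how these arrays scatter, and that scatter may be technical in part. Because the RNA came from bulk populations, fewer cells expressing a gene and less of its RNA per cell cannot be told apart.

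GBPs are large dynamin-like GTPases that assemble on the membranes of pathogen vacuoles and of bacteria in the cytosol and help to break them open. IRGs are smaller. The effector IRGs Iigp1 (Irga6), Tgtp1 (Irgb6) and Ifi47 (Irgd) load onto the vacuoles of parasites such as Toxoplasma, while the regulators Irgm1, Irgm2 and Igtp (Irgm3) stay on the cell's own membranes and hold the effectors inactive there. Interferon-gamma induces both families through its receptor, the kinases Jak1 and Jak2 and the transcription factor Irf1. Promoter elements tied to this response are gamma-activated sites (GAS) and interferon-stimulated response elements (ISRE), which IRF factors bind.

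The letters of these elements were looked up in the members' promoters, 250 bases before to 50 bases after each transcription start in RefSeq (GRCm38.p6), of which 9 of the 10 genes had an entry. The ISRE core was searched as GAAANNGAA and the GAS as TTCNNNGAA on both strands. On the opposite strand the ISRE core reads TTCNNTTTC, and the GAS is its own reverse. The stretches that hold the matches are shown on the strand of the gene, 5′ to 3′, with the matches in capitals. Gm12185 is included because RefSeq lists it as the IRG gene Irgb2b1. It was added after the family lists had been drawn up.
Gbp2, chr3:142620590-142620628, plus strand: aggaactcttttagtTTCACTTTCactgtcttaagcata
Gbp2b, chr3:142594696-142594734, plus strand: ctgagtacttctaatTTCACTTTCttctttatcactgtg
Gbp3, chr3:142559985-142560029, plus strand: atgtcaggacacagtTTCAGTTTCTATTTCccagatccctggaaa
Gbp7, chr3:142530215-142530307, plus strand: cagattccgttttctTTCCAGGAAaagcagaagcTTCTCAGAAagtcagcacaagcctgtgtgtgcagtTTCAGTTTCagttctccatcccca
Irgm1, chr11:48871421-48871465, minus strand: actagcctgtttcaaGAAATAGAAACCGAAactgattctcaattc
Irgm2, chr11:58214887-58214936, plus strand: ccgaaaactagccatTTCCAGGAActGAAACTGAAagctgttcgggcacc
Igtp, chr11:58199496-58199545, plus strand: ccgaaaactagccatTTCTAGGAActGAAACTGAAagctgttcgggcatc
Tgtp1, chr11:48992300-48992349, minus strand: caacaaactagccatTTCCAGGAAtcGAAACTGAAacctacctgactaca
Gm12185, chr11:48927234-48927283, minus strand: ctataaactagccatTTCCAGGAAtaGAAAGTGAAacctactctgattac

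The ISRE core was found in 8 of the 9 members with a promoter entry, against 8.56% of all 32851 promoters, and the GAS letters in 4 of 9, against 8.3%. All 4 GBP members carried the ISRE core in the orientation opposite to the gene, while the IRG members that carried it had it in the same orientation. In Gbp3 and Irgm1 a pair of ISRE cores overlapped, and the other start annotated for Gbp3 held neither motif. In Igtp, Irgm2, Tgtp1 and Gm12185 a GAS began 11 bases before an ISRE core, a spacing noticed after the sequences were seen. It occurred in 9 of the 32851 promoters, 3 of them of members. The remaining promoters with this spacing were those of Adar, Gm12185, Gm32293, Tgtp2, Olfr382 and LOC115488470. The longest identical run shared by the promoters of Igtp and Irgm2 was 61 bases. Ifi47 held neither motif in this window, although its transcript is given below beside the others. By gene, the ISRE core was found in 19 of 32 type I interferon response genes with an entry, 4 of 7 other GBP and IRG genes and 3 of 25 genes of interferon receptor signalling, against 9.76% of all 27025 genes. A match describes these letters and does not show that a factor binds there.

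**Figure D1:**
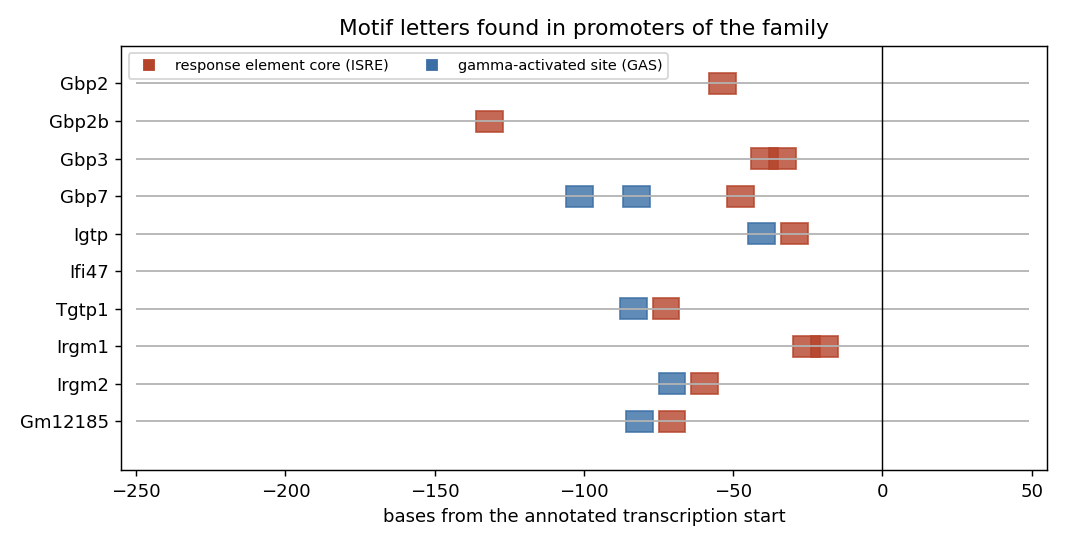
Positions of the motif letters in the promoters of the 9 members with an entry and of Gm12185, in bases from the annotated start (line at 0). Red boxes are ISRE cores and blue boxes GAS matches. In Igtp, Irgm2, Tgtp1 and Gm12185 the GAS lies just before the ISRE core, and Ifi47 has no match.

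The deposited values are log2 intensities, and medians of the arrays lay between 5.21 and 5.29. The regulatory T cell marker Foxp3 lay between 10.96 and 11.04 in RaptorKO and between 10.79 and 10.96 in WT. Of 11 markers listed for these cells 5 were higher and 6 lower in RaptorKO, with a median difference of -0.07, and limma called 0. Among the lower ones, Ctla4 (-0.32) and Cd4 (-0.22) had groups that did not overlap. Rptor itself read 6.63, 6.47, 6.50 and 6.95 in RaptorKO and 6.83, 6.85, 7.03 and 6.75 in WT, a difference of -0.23 (SE 0.12, limma adjusted p = 0.491) with overlapping groups. The position of its probe set relative to the floxed part is not known here. Xist lay between 10.88 and 11.18 in replicates 1 and 2 and between 5.04 and 5.62 in replicates 3 and 4 of both genotypes. The Y-linked Kdm5d lay between 3.74 and 4.39 in replicates 1 and 2 and between 8.22 and 8.51 in replicates 3 and 4. By these genes replicates 1 and 2 read as female and replicates 3 and 4 as male. Any other difference between the sets cannot be told apart from sex. Values are therefore also given within these sets of replicates.

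All 13 probe sets of the family had a lower mean in RaptorKO, and in 11 of them the 4 RaptorKO arrays lay below all 4 WT arrays. By gene, 8 of the 10 had groups that did not overlap (5.09% of the 11413 genes tested were lower with groups that did not overlap). Also 8 of the 10 had an adjusted p under 0.05 in the fit over all genes, where 1.14% of genes were called lower and 1.96% were called in either direction. Since the members were chosen on this difference, nothing is read from these counts. The median difference of the 10 was -0.48 on the log2 scale, beside -0.01 over all genes tested, and 1.95% of genes lay at or below the members' median. The 4 GBP members lay between -1.67 and -0.46, and the 6 IRG members between -0.67 and -0.26.

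**Figure D2:**
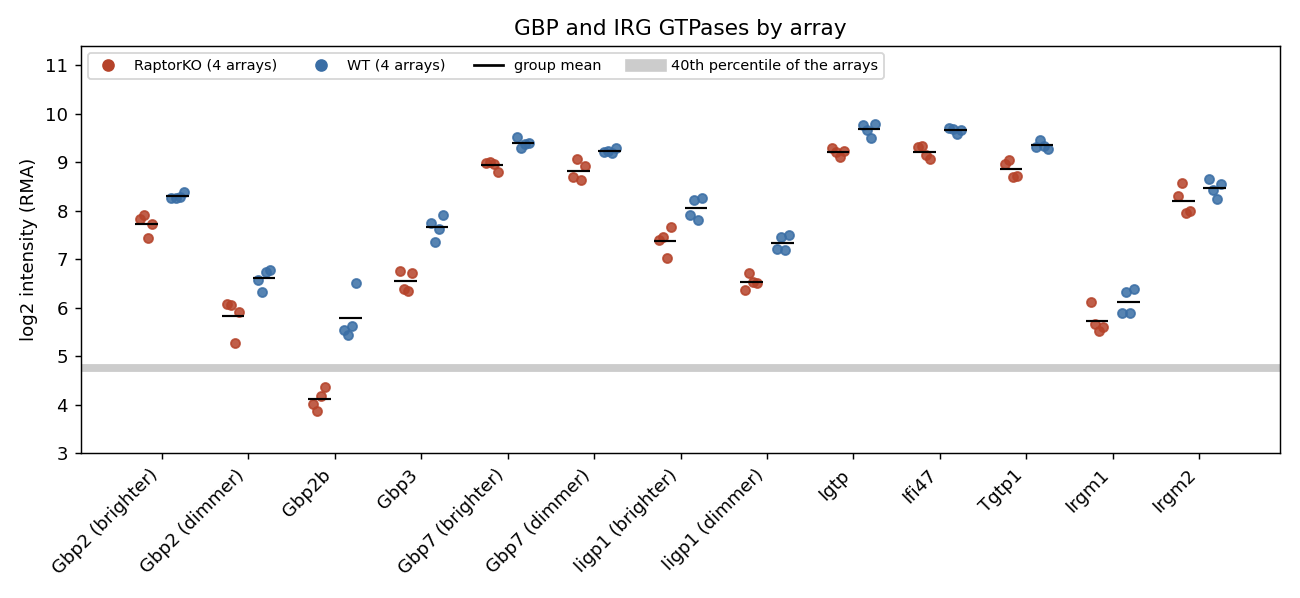
Log2 intensity of the 13 probe sets of the family on each array, with RaptorKO in red to the left of WT in blue and a black line at each group mean. The grey band spans the arrays' 40th percentiles, 4.69 to 4.81. The groups do not overlap except in Irgm1 and Irgm2, and the RaptorKO values of Gbp2b lie under the band. Heights of different probe sets are not comparable.

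Among the GBPs, Gbp2b read 4.02, 3.88, 4.18 and 4.37 in RaptorKO and 5.55, 5.43, 5.62 and 6.52 in WT, a difference of -1.67 (SE 0.21) with groups apart. All 4 RaptorKO values lay under the 40th percentile of their arrays (4.69 to 4.81), so Gbp2b passed the filter on dim signal through the WT arrays alone. Its difference is measured against dim signal, and no fold is given. Gbp3 read 6.76, 6.38, 6.35 and 6.71 in RaptorKO and 7.74, 7.35, 7.62 and 7.92 in WT, a difference of -1.11 (SE 0.14), or 2.15-fold lower. Its groups lay well apart on signal clearly above the percentile, which makes it the member with the largest difference measured between bright values on both sides.

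Gbp2, which in mice takes part in control of Toxoplasma, read 7.83, 7.92, 7.43 and 7.73 in RaptorKO and 8.27, 8.26, 8.28 and 8.38 in WT, a difference of -0.57 (SE 0.12). RaptorKO 3 was the lowest, and the WT arrays lay within a narrow band. The dimmer Gbp2 probe set read 6.07, 6.06, 5.27 and 5.92 in RaptorKO and 6.58, 6.33, 6.74 and 6.77 in WT, a difference of -0.77 (SE 0.18) with the same array lowest. The platform marks that probe set as one whose probes can also bind other transcripts, so its value may not be Gbp2 alone.

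Gbp7 gave the smallest differences of the 4 GBP members. Its brighter probe set read 8.99, 9.01, 8.97 and 8.80 in RaptorKO and 9.53, 9.29, 9.38 and 9.39 in WT, a difference of -0.46 (SE 0.10), or 1.37-fold lower. Its dimmer probe set read 8.69, 9.07, 8.63 and 8.92 in RaptorKO and 9.22, 9.24, 9.19 and 9.30 in WT, a difference of -0.41 (SE 0.12). In both probe sets the groups did not overlap.

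Of the effector IRGs, Iigp1 differed most. Its brighter probe set read 7.39, 7.47, 7.02 and 7.67 in RaptorKO and 7.92, 8.22, 7.82 and 8.26 in WT, a difference of -0.67 (SE 0.15), or 1.59-fold lower. Its dimmer probe set read 6.36, 6.71, 6.54 and 6.51 in RaptorKO and 7.21, 7.46, 7.19 and 7.51 in WT, a difference of -0.81 (SE 0.12). The dimmer set thus had the wider gap between the groups, and the brighter one a small gap between RaptorKO 4 and WT 3.

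Tgtp1 read 8.97, 9.04, 8.69 and 8.71 in RaptorKO and 9.32, 9.46, 9.34 and 9.28 in WT, a difference of -0.50 (SE 0.11). The near-identical copy Tgtp2 cannot be told apart from it here, so the value is uncertain as to which copy it measures. Ifi47 read 9.32, 9.34, 9.15 and 9.07 in RaptorKO and 9.70, 9.69, 9.58 and 9.66 in WT, a difference of -0.44 (SE 0.10). Both effectors had lower values on RaptorKO 3 and 4 than on RaptorKO 1 and 2, and neither overlapped with WT.

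Of the regulatory IRGs, Igtp read 9.29, 9.21, 9.11 and 9.24 in RaptorKO and 9.77, 9.66, 9.50 and 9.78 in WT, a difference of -0.46 (SE 0.10) with groups apart. Irgm1, which in mice is needed for resistance to mycobacteria, read 6.12, 5.67, 5.52 and 5.61 in RaptorKO and 5.90, 6.32, 5.90 and 6.39 in WT, a difference of -0.40 (SE 0.16). Its RaptorKO 1 value lay above 2 WT arrays. Irgm2 read 8.30, 8.58, 7.96 and 7.99 in RaptorKO and 8.65, 8.42, 8.25 and 8.55 in WT, a difference of -0.26 (SE 0.15). Its RaptorKO 2 value lay above 3 WT arrays.

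Over 22 alternative settings, or the 15 in which Gbp2b was tested, all 10 members kept a negative difference. Gbp2b was called in 15 of 15 of them and Gbp3 in 21 of 22, while Gbp2, Gbp7, Iigp1, Igtp, Ifi47 and Tgtp1 were called in 7 to 11 of 22 and Irgm1 and Irgm2 in 0. The number called moved to 1 without WT 1, WT 2 or WT 4, 2 without WT 3, RaptorKO 1 or RaptorKO 3, 3 without RaptorKO 4 and 6 without RaptorKO 2. Without any 1 of the WT arrays Gbp2b did not pass the filter and was not tested. Its count of 15 therefore leaves out the settings in which the filter removed it. Each setting reused the contrast by which the members were picked, so these counts are no independent support. Over all genes, 98 of 11323 were called without WT 4 and 251 of 11316 without RaptorKO 2.

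The rule did not use the difference between the sets of replicates or its interaction with genotype, so these were tested. All 10 members had a lower mean in RaptorKO in both sets. Their median was -0.40 in replicates 1 and 2 and -0.59 in replicates 3 and 4, and 9 of 10 had the larger difference in replicates 3 and 4. A downward shift was not particular to the members. In the same order the median was 0.021 and -0.041 over all genes tested. It was 0.066 and -0.171 for interferon receptor signalling and 0.092 and -0.159 for type I interferon response genes. The other GBP and IRG genes stayed level at 0.015. Gbp2 differed by -0.39 in replicates 1 and 2 and by -0.75 in replicates 3 and 4, Irgm1 by -0.22 and -0.58 in the same order, and Irgm2 by -0.10 and -0.43. Igtp alone was level, with -0.47 and -0.46. In the interaction of genotype with replicate set, limma called 0 of 11413 genes (0.0%) and 0 members, with 1304 genes but 0 members at an unadjusted p under 0.05. The larger differences in replicates 3 and 4 therefore did not pass the test. Between replicates 3 and 4 and replicates 1 and 2, with genotype in the fit, 18 genes (0.158%) but 0 members were called. Of all genes tested, 950 (8.32%) had an unadjusted p under 0.05 in this fit, and 2 members did. The 2 members were Gbp2b, 0.46 higher in replicates 3 and 4 (limma adjusted p = 0.518), and Irgm2, -0.30 (limma adjusted p = 0.549). Gbp2b read 6.52 on WT 4 and 5.43 to 5.62 on the other WT arrays, and its RaptorKO values lay near background.

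**Figure D3:**
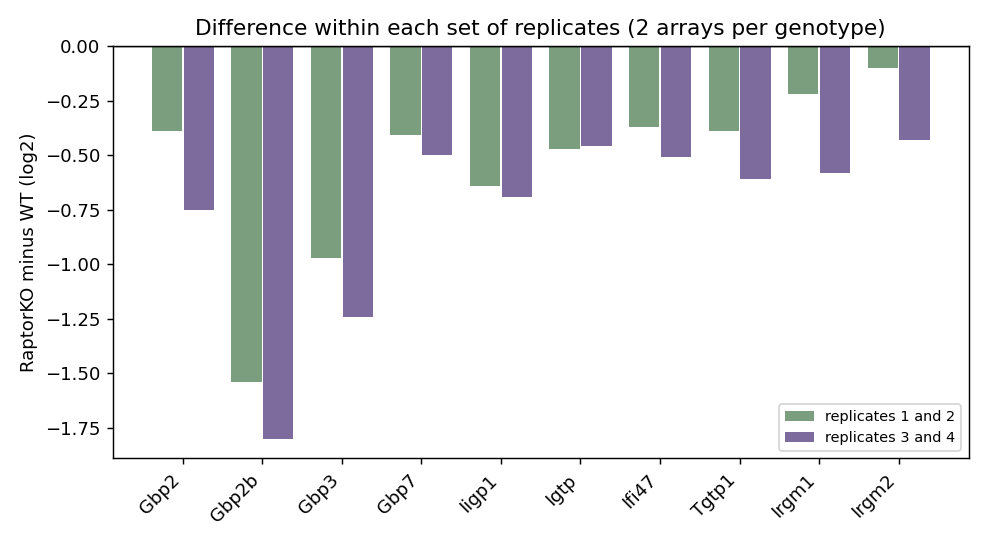
Difference between RaptorKO and WT (log2) of each member within replicates 1 and 2 (green) and within replicates 3 and 4 (purple), each from 2 arrays per genotype and without error bars. All bars point down, and all but those of Igtp are longer in replicates 3 and 4.

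The rest of the family on the array did not pass the test. Gbp4 differed by 0.07 (SE 0.11, limma adjusted p = 0.871), Gbp8 by -0.15 (SE 0.11, adjusted p = 0.651) and Gbp10 by -0.10 (SE 0.10, adjusted p = 0.784). These 3 GBPs lay between -0.15 and 0.07, where the 4 GBP members lay between -1.67 and -0.46. The members were picked because most of them fell, so nothing is read from this gap. The value of -1.67 is that of Gbp2b, which lay near background in RaptorKO. Gbp8 read 6.88, 6.93, 6.98 and 6.79 in RaptorKO and 7.07, 6.81, 7.03 and 7.27 in WT, with overlapping groups. Gbp4 and Gbp10 overlapped too, and the dimmer probe set of Gbp10 differed by -0.14. In the RefSeq gene order the 4 member GBPs neighbour each other in one cluster, and Gbp4, Gbp8 and Gbp10 neighbour each other in another.

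Irgc1, best known from the testis, differed by 0.13 (adjusted p = 0.729), and Irgq, a divergent relative of the IRGs, by 0.02 (adjusted p = 0.972). In limma 0 of these 5 other family genes were called and 0 had an unadjusted p under 0.05. Gm12185 read 6.23, 5.90, 6.37 and 5.79 in RaptorKO and 6.22, 6.30, 6.61 and 6.11 in WT, a difference of -0.24 (SE 0.15, adjusted p = 0.581) with overlapping groups. Its promoter holds the same spaced GAS and ISRE core as Tgtp1, Igtp and Irgm2. Gbp5, Gbp6, Gbp9 and Gm12250 were not analysed here, and no test compared the members with the rest of the family.

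**Figure D4:**
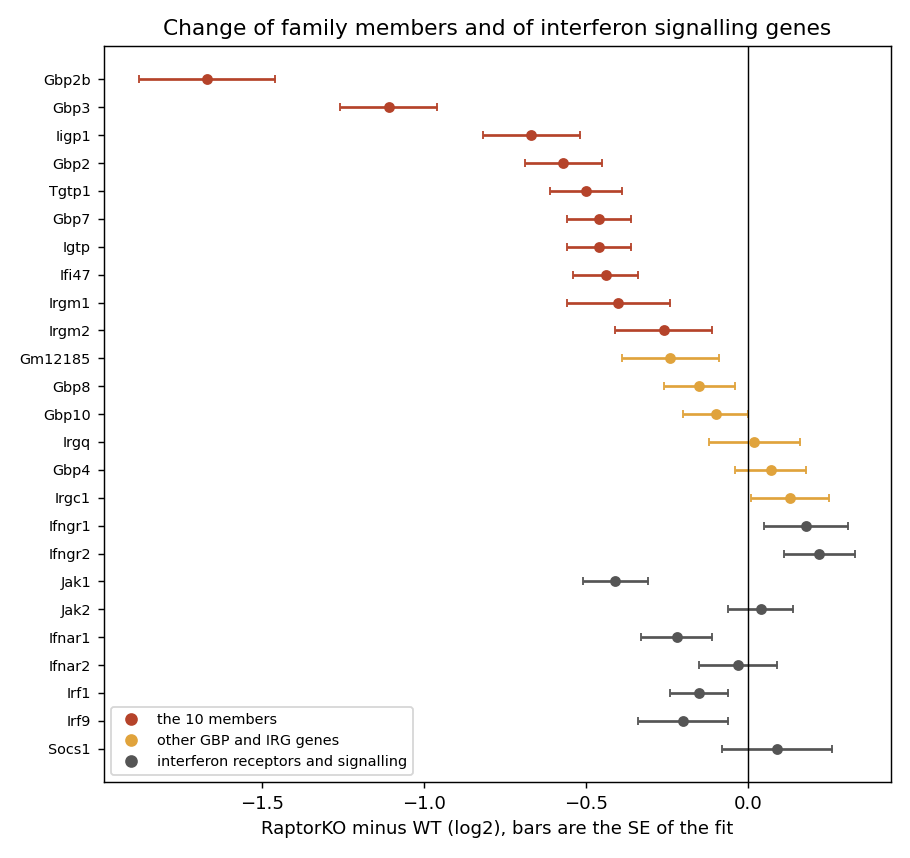
Difference between RaptorKO and WT (log2) with the SE of the limma fit as bars, for the 10 members (red), the other GBP and IRG genes (yellow, Gm12185 included) and genes of interferon receptors and signalling (grey). The members, picked because most fell, lie left of 0, between -1.67 and -0.26, and the other family genes between -0.24 and 0.13.

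Interferon receptors and their signalling genes showed no call. The interferon-gamma receptor chains Ifngr1 (0.18, SE 0.13, limma adjusted p = 0.65) and Ifngr2 (0.22, adjusted p = 0.433) had higher means in RaptorKO. The type I receptor chains differed by -0.22 for Ifnar1 (adjusted p = 0.431) and -0.03 for Ifnar2 (adjusted p = 0.952). Jak1, the kinase shared by both receptors, came closest to a call. It read 9.88, 9.87, 9.82 and 9.75 in RaptorKO and 10.25, 10.16, 10.39 and 10.15 in WT, a difference of -0.41 (SE 0.10, adjusted p = 0.0585) with groups that did not overlap. It was called with the 60th percentile filter, with an intensity trend, with array weights and when its probe sets were averaged.

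Jak2 differed by 0.04 (adjusted p = 0.938) and the feedback inhibitor Socs1 by 0.09 (adjusted p = 0.903). Irf1, a transcription factor that drives GBP genes, read 9.05, 9.21, 9.20 and 9.21 in RaptorKO and 9.25, 9.40, 9.26 and 9.35 in WT. The groups did not overlap, but the difference of -0.15 (SE 0.09, adjusted p = 0.58) was small and did not pass. Irf9, a DNA-binding factor of the type I interferon response, differed by -0.20 (adjusted p = 0.64), and Irf4, a T cell activation factor, by -0.39 (adjusted p = 0.133). The Irf4 groups did not overlap, with a highest RaptorKO value of 7.41 and a lowest WT value of 7.43. Irf4 was called when its probe sets were averaged (-0.49, limma adjusted p = 0.0241). Over the list, limma called 0 of 27 tested genes, 5 had an unadjusted p under 0.05, all lower, and the median was -0.03. For this list and those below, the background is 1488 of all 11413 genes tested with an unadjusted p under 0.05, 855 of them lower. Ifng itself lay between 4.17 and 4.48 in RaptorKO and between 4.43 and 5.29 in WT, under the 40th percentile on 6 of 8 arrays, and was not tested.

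In antigen processing, 16 of 18 tested genes had a negative difference, beside 5978 of all 11413 genes tested, with a median of -0.07. In this list limma called 0 and 3 had an unadjusted p under 0.05, all lower. The proteasome activator subunit Psme2 differed by -0.38 (adjusted p = 0.0966) and the chaperone Calr by -0.30 (adjusted p = 0.189). Of 36 tested type I interferon response genes, 1 rose and 2 fell, with a median of -0.04. Rsad2, the antiviral enzyme viperin, read 6.95, 7.36, 6.88 and 7.55 in RaptorKO and 6.27, 6.17, 6.01 and 6.49 in WT. It rose by 0.95 (SE 0.16, limma adjusted p = 0.0104), or 1.94-fold, opposite to the sign of the members, in groups that did not overlap.

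Samhd1, a dNTP hydrolase that restricts viruses, read 10.89, 10.75, 10.72 and 10.83 in RaptorKO and 11.47, 11.36, 11.43 and 11.55 in WT. It fell by 0.65 (SE 0.09, limma adjusted p = 0.00426). Sp100, a nuclear body protein, fell by 0.43 (SE 0.10, limma adjusted p = 0.0436). Sp100 lost its call without RaptorKO 1, 3 or 4 or without any 1 of the WT arrays, with adjusted p between 0.066 and 0.14. It also lost it with a replicate block (adjusted p = 0.125), averaged probe sets, all probe sets tested, no filter, quantile normalization, arrays centred on the median and the macrophage covariate (adjusted p = 0.0511). Rsad2 lost its call when its probe sets were averaged (0.70, limma adjusted p = 0.0593).

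The autophagy and inflammasome genes that work with these GTPases showed 0 calls of 15 in limma, with 3 at an unadjusted p under 0.05 and a median of 0.01. Gabarap, whose family guides IRGs and GBPs to vacuoles, differed by 0.47 (adjusted p = 0.0855), and the inflammasome adaptor Pycard by -0.25 (adjusted p = 0.255). Among genes of Th1-like regulatory T cells, which respond to interferon-gamma, limma called 0 of 11, with 3 at an unadjusted p under 0.05 and a median of -0.05. Stat4 differed by -0.51 (adjusted p = 0.169) and the chemokine receptor Cxcr6 by -0.60 (adjusted p = 0.282).

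**Figure D5:**
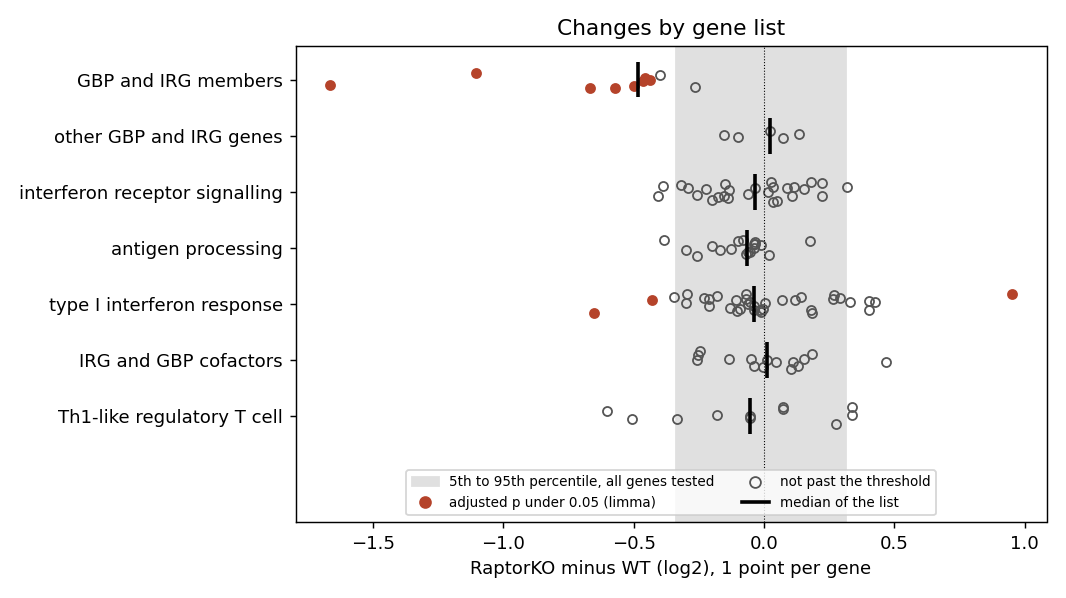
Difference between RaptorKO and WT (log2), with 1 point per tested gene and a black line at the median of each list. Filled points passed an adjusted p of 0.05 in limma over all genes, and the grey band spans the 5th to 95th percentile of all genes tested. The members' median is -0.48, and the medians of the other lists lie between -0.07 and 0.02.

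Within a genotype the members varied together only in part. After each genotype's mean was taken off, the correlation between members over the 8 arrays had a median r of 0.34 over 45 pairs and ran from -0.59 to 0.88, with 37 pairs positive. The average member stood 0.17 above its genotype's mean on WT 4 and 0.16 below it on RaptorKO 3. Igtp (r = 0.82) and Gbp2 (r = 0.79) followed that average most, and Gbp7 (r = 0.14) least. Each member is itself part of that average, so its r cannot be set beside those of genes outside the members. The genes outside the family most like it in this measure were Bap1, F8a, Wdsub1 and D130043K22Rik (r between 0.97 and 0.98), Hilpda (r = 0.96), Bcl2l1, Capg and Ccnyl1 (r = 0.95 each), and Acadvl and Ttc29 (r = 0.94 each). None of these 10 is on an interferon list here, and their own differences between genotypes lay between -0.19 and 0.16. The closest listed interferon genes were Ube2n (r = 0.84), Ifit1 (r = 0.77) and Irf9 (r = 0.76). With 8 arrays that share 2 group means, 33 of 11403 genes had an r over 0.9, so likeness is a description only.

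Markers of other cell types were measured on the same arrays. Of 18 macrophage and monocyte markers 15 were higher in RaptorKO, with a mean level of the list per array of 5.54 to 6.24 in RaptorKO and 5.13 to 5.90 in WT, and limma called 0. Adgre1, Itgam and Mertk lay under the 40th percentile on all arrays. Of 10 NK and CD8 T cell markers 7 were lower (5.80 to 6.11 in RaptorKO, 5.50 to 6.63 in WT), with Ncr1 and Klrb1c under that percentile throughout. Of 9 conventional CD4 T cell markers 8 were lower (8.06 to 8.29 in RaptorKO, 8.28 to 8.43 in WT), of 9 B cell markers 7 were higher (5.47 to 5.75 in RaptorKO, 4.89 to 5.82 in WT) and of 7 dendritic cell markers 5 were higher (5.33 to 5.48 in RaptorKO, 5.14 to 5.25 in WT), with 1 of them called. With the macrophage mean as a covariate the members' median difference was -0.42, with 2 members called. The part of the other cells in the members' values was not tested.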

How the data were processed

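Sorted regulatory T cells were measured on 8 single-channel arrays, 4 RaptorKO and 4 WT, grouped by sample title. The deposited values are log2 intensities made by the authors with RMA, per the submitters' processing notes; no version of it is named there. RMA normalizes between arrays, which removes differences in total signal. The number of arrays limits the precision.

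Of 45141 probe sets, 28898 listed 1 gene, 551 several and 15692 none in the platform annotation; 28689 matched RefSeq (GRCm38.p6). The brightest probe set stood for each gene and was tested if it lay above the 40th percentile of 4 or more arrays (11413 genes). RaptorKO was compared with WT in limma 3.58.1 (R 4.3.3, lmFit and eBayes, no covariate) with Benjamini-Hochberg adjustment over all genes and a threshold of 0.05. Differences are RaptorKO minus WT with the SE of the fit. The fit was tested on simulated data. Deviations of same-numbered arrays correlated weakly (r = 0.157, -0.153, 0.106 and 0.026), and those of differently numbered arrays ran from -0.235 to 0.215. These values cannot show whether samples were paired, and Xist set replicates 1 and 2 apart from 3 and 4 in both genotypes. The main fit used no replicate block. With such a block 3 members were called in place of 8.

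The members, gene lists and tests were chosen with earlier results of these data known. Named were all members, other family genes on the array, receptor and signalling genes (1 of them not reported here), up to 4 called genes of each further list or else 2 with the smallest p, the 10 genes most like the members, and Rptor. Gm12185, Ube2n, Ifit1, Kdm5d, Cd8a and Cd8b1 were named after their values were seen. Alternatives were a replicate block, other probe set rules, filters, normalizations, variance models, array weights, covariates, each replicate set alone and leaving out each array. Tables were made in Python 3.11.15 and figures with matplotlib 3.10.9.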

Additional observations from a re-analysis of the deposited data

Results flagged for a closer look

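Among 82 groups of 4 arrays checked for 1 value far from the rest, 5 stood out, where chance gives about 1 in 20. The gap to the nearest value as a share of the group's range, which exceeded Dixon's critical value in each, was 0.833 for the brighter Gbp2 probe set in WT, where WT 4 (8.38) lay above the rest. It was 0.937 for Irf1 in RaptorKO and 0.864 for Sp100 in RaptorKO, in both of which RaptorKO 1 was the low array. It was 0.864 for Ifngr2 in RaptorKO, where RaptorKO 2 (8.59) was high, and 0.917 for Ifnar1 in WT, where WT 4 (8.53) was high.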

How the results depend on the processing

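The members' median difference stayed negative in every alternative run (-0.39 to -0.58), but the 8 members called became 3 with a replicate block, 3 with arrays centred on the median, 2 with the macrophage covariate, 0 in replicates 1 and 2 alone and 1 in replicates 3 and 4 alone, and 1 to 6 without single arrays. Replicates 1 and 2 alone or 3 and 4 alone hold fewer arrays. Each run reuses the contrast by which the members were picked, so the kept sign is no independent support. The 224 genes called in all became 370 with an intensity trend, 10 in replicates 1 and 2 alone, 130 in replicates 3 and 4 alone, and 98 to 251 without single arrays (98 without WT 4). Interferon signalling had 2 calls with the mean of probe sets and 1 with all probe sets tested, the 60th percentile filter, the intensity trend or array weights, in place of 0. Antigen processing had 3 with the intensity trend, cofactors 1 with quantile normalization or the intensity trend, and Th1-like genes 1 with array weights or the macrophage covariate, each in place of 0. Type I response genes had 1 in place of 3 with the mean of probe sets and 2 to 3 without single arrays. Uncalled differences near 0 changed sign: Irgq (-0.04 with the mean of probe sets, -0.03 with array weights, -0.02 without WT 3, and -0.11 to 0.12 without single arrays, lowest without RaptorKO 2), Jak2 (-0.06 with the mean of probe sets, -0.01 without RaptorKO 2), Ifnar2 (0.01 with quantile normalization, 0.07 with the macrophage covariate, 0.05 without RaptorKO 4), Socs1 (-0.09 to 0.21 without single arrays, lowest without RaptorKO 2) and Gbp4 (-0.0 to 0.13, likewise). The cause was not tested. Signal near background limits Gbp2b.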
